A study of Mus musculus with 32 samples.

Results

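The cells described here were bone marrow-derived macrophages (BMDMs) from Ifnar1-/- mice, which lack a chain of the receptor for type I interferon, cultured with or without the caspase inhibitor zVAD. The members were all 8 arrays of this genotype, out of 32 in the series, that carried the treatments zVAD, IFNβ+zVAD, IFNβ alone or none. The 2 arrays of each treatment gave 4 arrays with zVAD and 4 without. The cells came from mice deficient for Ifnar1, with C57BL/6 as the wild type (WT; C57BL6/J in the study's methods), and were grown from flushed marrow with M-CSF before the treatments. RNA was taken after 6 h. The sources used here gave zVAD at 50 µM, and they gave 3 different amounts of IFNβ, namely 1000 U/mL, 100 U/mL and 10 ng/mL. The age of the mice and whether the arrays of a treatment came from separate animals or cultures were not given. Each p-value below therefore measures the spread between replicate arrays, which may be technical. Unless another fit is named, this spread was pooled over the 16 groups of the series. The same 4 treatments in 8 WT arrays served for comparison.

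As background, caspase-8 cleaves RIPK1 and RIPK3, the kinases that form the necrosome and activate MLKL, the executor of necroptosis. zVAD-fmk blocks caspases broadly, and in macrophages that also sense interferon or a microbial product this can turn the response towards necroptosis and cytokine production. Secreted IFNβ normally binds the receptor made of IFNAR1 and IFNAR2 and turns on the interferon-stimulated genes. Cells without IFNAR1 cannot relay this signal, so caspase inhibition in them can be measured with the added IFNβ treated as a covariate.

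The data were log2 intensities of 16105 genes on Agilent mouse arrays, normalised together over the 32 arrays, and a gene was called when its limma adjusted p was under 0.05. Between 47.9% and 61.6% of probes stood well above background on the 8 arrays, and the 4 arrays with zVAD (49.2% to 58.9%) lay inside that range. Each replicate number was 1 slide, with replicate 1 of the Ifnar1-/- arrays on slide 3 and replicate 2 on slide 4. Genotype could not be told apart from slide, whereas each treatment was present on both slides. The macrophage markers were well above background on all 8 arrays for 11 of 11 genes, with summed log2 levels of 19.82 to 19.92 with zVAD and 19.73 to 19.93 without. Markers of other cell types were present too. Well above background on all 8 arrays were 6 of 7 neutrophil genes, 2 of 7 T and NK cell genes (Cd3e and Klrb1c), 2 of 5 B cell genes (Cd79a and Cd79b), 2 of 5 dendritic cell genes (Siglech and Zbtb46) and 4 of 5 fibroblast and endothelium genes, against 0 of 4 mast cell and basophil genes and 0 of 4 erythroid genes. The neutrophil genes had summed log2 levels of 15.62 to 16.07 with zVAD and 15.87 to 15.97 without, the T and NK cell genes 10.33 to 11.02 and 10.55 to 11.19, the B cell genes 10.05 to 10.47 and 10.35 to 10.52, the dendritic cell genes 15.23 to 15.80 and 15.27 to 16.03, and the fibroblast and endothelium genes 9.62 to 10.82 and 9.97 to 11.30. In each of these lists the ranges with and without zVAD overlapped, and the part of such cells in the results below was not tested.

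In the Ifnar1-/- cells 2 arrays lay close to an array of another treatment. Over the 12267 genes well above background on every array, the library labelled zVAD replicate 2 lay nearest to untreated replicate 2 of the same slide, at a root mean square log2 distance of 0.158, and next to IFNβ replicate 2, at 0.167. Its distance to its own replicate was 0.401. zVAD replicate 1, by contrast, lay nearest to IFNβ+zVAD replicate 1, at 0.256. A nearest array of another treatment on the same slide was also seen elsewhere. IFNβ+zVAD replicate 2 lay nearest to IFNβ replicate 2, at 0.301, and WT zVAD replicate 1 to WT untreated replicate 1, at 0.304. The library labelled zVAD replicate 2 is called discordant below for its levels of genes such as Tnf and Cxcl10. A library outside this comparison that entered the shared estimate of spread, LPS+zVAD+Nec1 replicate 2 of the Ifnar1-/- cells, lay 0.219 from IFNβ+zVAD+Nec1 replicate 2 and 0.944 from its own replicate, whereas the other groups' replicates lay 0.346 to 0.665 apart. Because a large gap between replicates widens the error of every comparison, the results are given with the libraries as labelled and, where they rest on the library labelled zVAD replicate 2, without it.

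The Ifnar1 probe gave log2 levels of 11.69 to 12.22 on the 8 Ifnar1-/- arrays (median 11.88) and 12.53 to 14.76 on the 8 WT arrays. Whether this probe lies in the disrupted part of the gene was not determined, so its level is no check of the knockout. The response to the added IFNβ was a more direct measure. Among 25 interferon-stimulated genes, the log2 difference of the IFNβ array from the untreated array on the same slide had a median of -0.14 on slide 3 and -0.09 on slide 4 in the Ifnar1-/- cells. The same differences in WT cells had medians of 3.63 and 3.56. In the WT pairs 24 of the 25 genes were at least 2-fold higher with IFNβ, against 2 on slide 3 (Ifit1 and Oasl1, neither well above background there) and 0 on slide 4 in the Ifnar1-/- cells. The covariate effect of IFNβ over the 8 arrays, averaged over the absence and presence of zVAD, gave 0 calls with limma among 16105 genes, with 428 genes (2.66%) at an unadjusted p under 0.05.

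Some cytokine and chemokine genes were at least 2-fold higher with zVAD than without it on the same 3 of the 4 slide-matched pairs. They were 4 of the 15 cytokine genes measured (Tnf, Il1a, Il1b and Tnfsf9) and 6 of the 18 chemokine genes, among them Cxcl1, Cxcl2 and Cxcl10. Over all 16105 genes 82 (0.509%) met this rule, and the 3 pairs were picked after the arrays had been seen. Ptgs2, a prostaglandin synthase gene, and Acod1, which makes itaconate, were also at least 2-fold higher on these pairs. On the fourth pair, the one holding the library labelled zVAD replicate 2, the log2 difference was -0.009 for Tnf, 0.046 for Cxcl10, 0.447 for Acod1 and 0.861 for Ptgs2. In the pooled comparison of 4 arrays against 4, with IFNβ held as covariate, 1 gene was called higher and 0 lower by limma, which is 0.00621% of the 16105 genes, and an unadjusted p under 0.05 was seen for 272 genes (1.69%), of which 168 (1.04%) were higher and 104 (0.646%) lower. The separate comparisons gave 0 calls for zVAD against untreated (61 genes, 0.379%, at an unadjusted p under 0.05) and 1 call, 0.00621%, for IFNβ+zVAD against IFNβ (370 genes, 2.3%). Without the library labelled zVAD replicate 2 the pooled comparison gave 7 calls, all higher, namely 4933438K21Rik, Cxcl10, Cxcl2, Ier3, Ifit1, Ifnb1 and Oasl1. Leaving out IFNβ+zVAD replicate 1 instead gave a larger set, with genes such as Chrng, Eqtn, Neurog3 and Kcnrg, that shared only 4933438K21Rik with these. Leaving out IFNβ replicate 2 also gave calls, and leaving out any other single array of the 8 gave none. Each such fit rests on 1 array in a group, so the calls depend on which array is left out. With the slide as a block the pooled count was 0, that for IFNβ+zVAD against IFNβ was 2 and that for the covariate IFNβ was 15, all lower. In RNA from whole cultures, a different number of cells of some kind and a different amount of RNA per cell cannot be told apart.

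**Figure D1:**
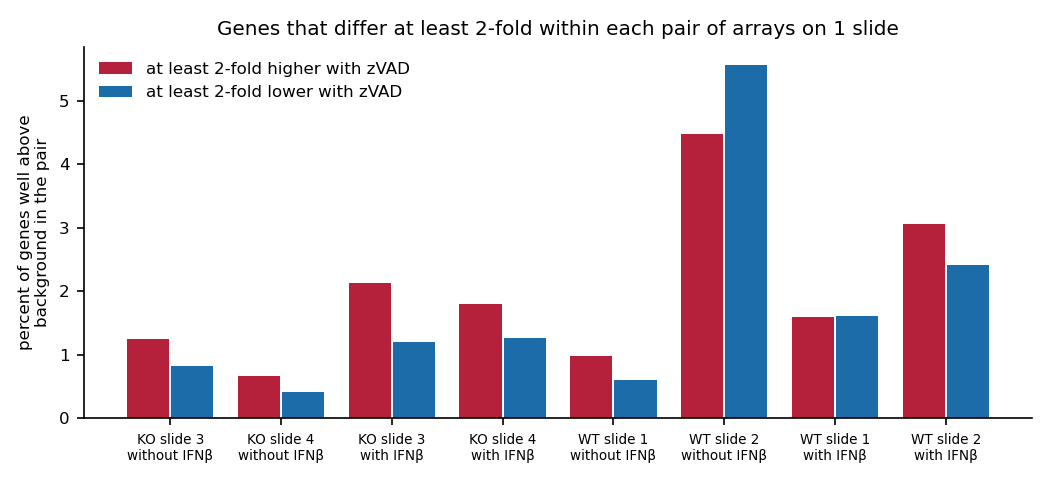
Percent of the genes well above background in a pair (y axis) that were at least 2-fold higher (red bars) or lower (blue bars) with zVAD, for each pair of arrays on 1 slide (x axis) of the Ifnar1-/- (KO) and WT cells. The smallest shares are those of slide 4 without IFNβ in the Ifnar1-/- cells, 0.659% higher and 0.418% lower.

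The called gene was 4933438K21Rik, an uncharacterised transcript. Its log2 levels were 3.95 and 3.44 on the untreated arrays, 4.16 and 4.28 with zVAD, 2.32 and 2.51 with IFNβ, and 5.13 and 5.34 with IFNβ+zVAD. The groups with and without zVAD did not overlap, but the probe was well above background on 0 of these 8 arrays, so no fold is given and the limma call (adjusted p = 0.0274) compares signals at the level of background. The probe passed the filter through other arrays of the series. The call was lost under 12 of 19 other settings.

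Taken pair by pair within a slide, 198 genes (1.25%) were at least 2-fold higher with zVAD on slide 3 without IFNβ, 104 (0.659%) on slide 4 without IFNβ, 319 (2.14%) on slide 3 with IFNβ and 269 (1.8%) on slide 4 with IFNβ. Genes at least 2-fold lower numbered 132 (0.83%), 66 (0.418%), 179 (1.2%) and 189 (1.26%) in the same order. The 3 pairs other than slide 4 without IFNβ, which share no array with each other, had 82 genes at least 2-fold higher in every one, 0.509% of all genes, and 11 lower, 0.0683%. These 3 pairs were picked after the arrays had been seen, so the 82 genes are a description. Across the 82 genes the median log2 difference was 1.65 on slide 3 without IFNβ, 2.08 on slide 3 with IFNβ and 1.57 on slide 4 with IFNβ. In the remaining pair it was 0.02, with a range of -1.19 to 1.09, and 46 of the 82 genes lay above 0. Of the 82, Cxcl3 reached 2-fold in that pair, where it was not well above background, and 0 genes reached it in all 4 pairs while well above background in each. When the 3 arrays with zVAD other than the discordant one were set against the 4 without, 904 genes (5.62%) had all 3 values above all 4, and 1078 (6.7%) had them below. With all 4 arrays kept, 250 genes (1.56%) lay wholly above and 102 (0.635%) wholly below.

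**Figure D2:**
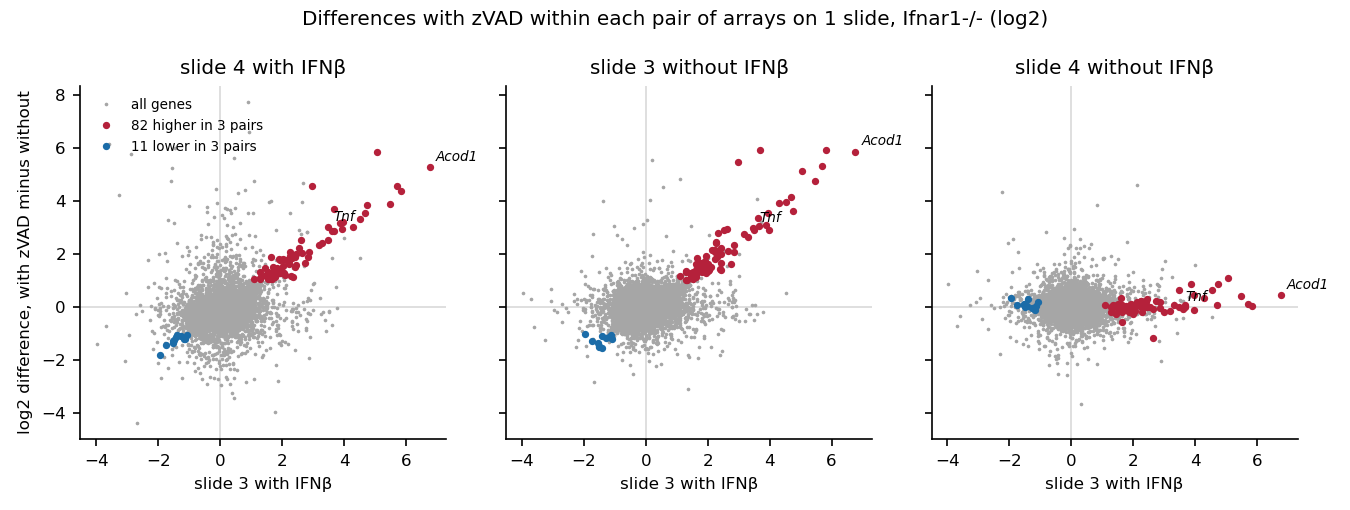
Log2 difference with minus without zVAD of each gene within a slide, with slide 3 with IFNβ on the x axis of every panel and slide 4 with IFNβ, slide 3 without IFNβ and slide 4 without IFNβ on the y axes. Grey points are all genes, red the 82 genes and blue the 11 genes at least 2-fold higher or lower in the 3 pairs, so their place in the first 2 panels follows from how they were chosen; in the last panel the red points lie between -1.19 and 1.09.

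Tnf encodes the cytokine that drives both NF-κB signalling and RIPK1-dependent death. Its probe (mm9 chr17:35336795-35336854) stood at log2 levels of 9.88 and 10.13 on the untreated arrays and 9.83 and 10.37 with IFNβ. With IFNβ+zVAD it stood at 13.30 and 13.38, and with zVAD alone at 12.84 and 10.13. All arrays without zVAD were therefore low, 3 arrays with zVAD were high, and the library labelled zVAD replicate 2 overlapped the arrays without it. The pooled log2 difference was 2.36 (SE 0.78, unadjusted p = 0.00739, limma adjusted p = 1.0), a 5.12-fold difference. In the pair of groups with IFNβ, which does not use the discordant library, it was 3.24 (SE 1.11, unadjusted p = 0.00891, adjusted p = 1.0), or 9.44-fold. For zVAD against untreated it was 1.48 (SE 1.11). When the groups zVAD and LPS+zVAD+Nec1 of the Ifnar1-/- cells were left out of the shared spread, a choice made after seeing the data, the error of the comparison with IFNβ was 0.31 and the limma adjusted p 4.85e-05. That step removes the spread between the zVAD arrays at 12.84 and 10.13, so the smaller p depends on the choice.

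Il1b, which encodes the IL-1β precursor, stood at 7.03 and 7.80 on the untreated arrays, 7.58 and 8.02 with IFNβ, 10.94 and 8.12 with zVAD, and 11.87 and 11.04 with IFNβ+zVAD. The arrays with zVAD all lay above those without, the discordant one by the smallest margin. Its pooled log2 difference was 2.89 (SE 1.27, adjusted p = 1.0). Tnfsf9, the gene of 4-1BB ligand, a costimulatory member of the TNF family, stood at 7.53 and 7.87 untreated, 7.59 and 7.95 with IFNβ, 10.59 and 7.97 with zVAD, and 11.26 and 10.81 with IFNβ+zVAD. The pooled log2 difference of Tnfsf9 was 2.42 (SE 0.57, unadjusted p = 0.000487, adjusted p = 1.0). Il1a, the IL-1α gene, was well above background on 3 arrays with zVAD and 0 without, at least 3.18-fold higher in the pooled groups. Il6 was well above background on 1 array with zVAD and 0 without. Of 15 cytokine genes measured, 5 had an unadjusted p under 0.05, all higher with zVAD (Tnf, Il1a, Il1b, Tnfsf9 and Ifnb1), against 1.04% of all genes higher at that level. In the list 0 were called, and the median pooled log2 difference was 0.43, against -0.01 over all genes. Its slide-matched medians were 1.32 and 0.09 on slides 3 and 4 without IFNβ and 0.76 and 0.40 with it.

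**Figure D3:**
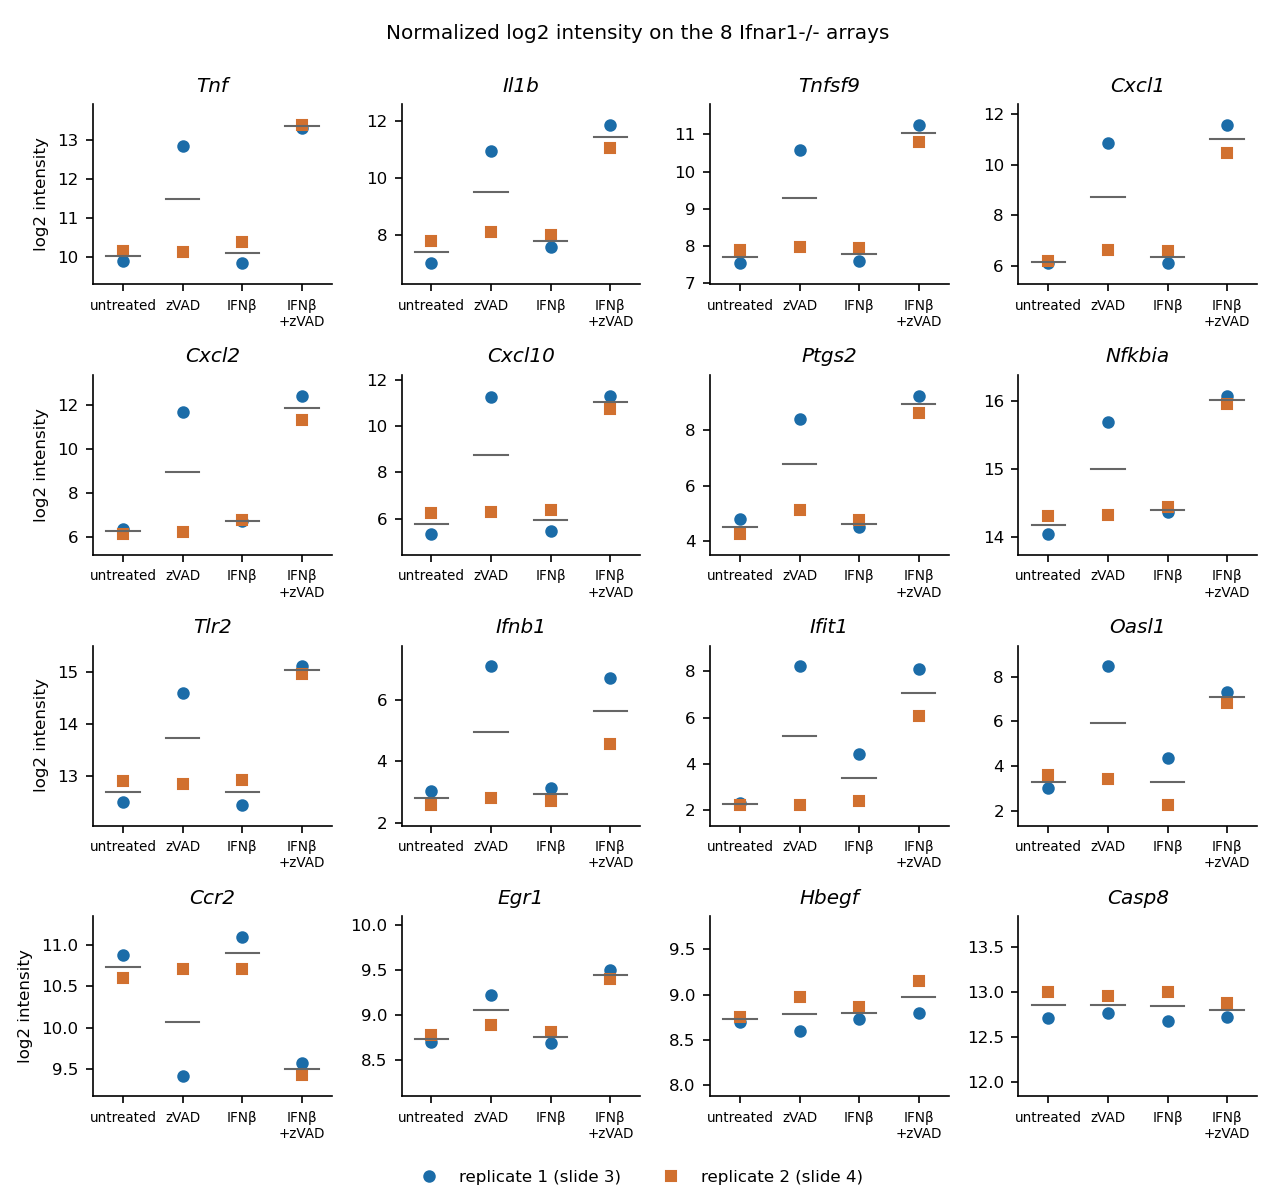
Log2 level of the named genes on each of the 8 Ifnar1-/- arrays (y axis, log2 normalised intensity), by treatment (x axis); blue circles are slide 3, orange squares slide 4 and grey lines the means of 2 arrays. For Tnf, Cxcl1, Cxcl2 and Cxcl10 the slide 4 array with zVAD alone sits at or near the level of the arrays without zVAD.

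Among the chemokine genes, Cxcl1, Cxcl2 and Cxcl10 had pooled log2 differences above 3. Cxcl1, a neutrophil attractant, stood at log2 levels of 6.13 and 6.21 on the untreated arrays, 6.11 and 6.58 with IFNβ, 10.86 and 6.64 with zVAD, and 11.58 and 10.47 with IFNβ+zVAD. The pooled log2 difference was 3.63 (SE 1.03, unadjusted p = 0.00242, adjusted p = 1.0). Cxcl2, of the same kind, stood at 6.37 and 6.12 untreated, 6.73 and 6.74 with IFNβ, 11.67 and 6.22 with zVAD, and 12.43 and 11.30 with IFNβ+zVAD, a pooled log2 difference of 3.91 (SE 1.01, unadjusted p = 0.0011, adjusted p = 1.0). The discordant library lay just above the untreated range for Cxcl1 and inside it for Cxcl2. Cxcl10, which draws T cells and is known both as an NF-κB and as an interferon target, stood at 5.34 and 6.24 untreated, 5.49 and 6.39 with IFNβ, 11.25 and 6.29 with zVAD, and 11.31 and 10.74 with IFNβ+zVAD. Its pooled log2 difference of 4.03 (SE 0.73, unadjusted p = 2.61e-05) gave an adjusted p of 0.21, and without the library labelled zVAD replicate 2 it was 5.27 with an adjusted p of 0.000117. For Cxcl2 the same step gave 5.28 with an adjusted p of 0.0439.

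Of the 18 chemokine genes measured, 5 had an unadjusted p under 0.05, all higher with zVAD (Cxcl1, Cxcl2, Cxcl3, Cxcl10 and Ccl4), and 6 were among the 82 genes above (these 5 and Ccl5). Over all genes these shares were 1.04% and 0.509%. Ccl4, a chemokine of macrophages already high in resting cells, stood at 11.21 and 11.53 untreated, 11.41 and 11.49 with IFNβ, 13.65 and 11.58 with zVAD, and 13.67 and 13.33 with IFNβ+zVAD. Ccl2, the monocyte attractant, chosen here after its value was seen, differed by -0.18 (SE 0.42). The list thus held members with log2 differences from below 0 to above 4, with a median of 0.36.

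Promoters of some of the genes the comparison turns on are shown because these genes are known targets of NF-κB or of the interferon pathway. Each sequence is the 250 bases before the gene's start in RefSeq on GRCm38.p6, read 5′ to 3′ on the gene's strand. Capitals mark matches on either strand to GGGNNNTTCC, a form of the NF-κB site, to GAAANNGAAA, the core of the interferon-stimulated response element, or to TGANTCA, the AP-1 site.
Cxcl1 (chr5:90890995-90891244, plus strand): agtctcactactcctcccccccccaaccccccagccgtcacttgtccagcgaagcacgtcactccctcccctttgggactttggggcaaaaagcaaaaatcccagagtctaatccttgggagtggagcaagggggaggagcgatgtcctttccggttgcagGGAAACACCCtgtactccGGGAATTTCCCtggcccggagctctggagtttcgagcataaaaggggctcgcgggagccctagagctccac
Cxcl2 (chr5:90903649-90903898, plus strand): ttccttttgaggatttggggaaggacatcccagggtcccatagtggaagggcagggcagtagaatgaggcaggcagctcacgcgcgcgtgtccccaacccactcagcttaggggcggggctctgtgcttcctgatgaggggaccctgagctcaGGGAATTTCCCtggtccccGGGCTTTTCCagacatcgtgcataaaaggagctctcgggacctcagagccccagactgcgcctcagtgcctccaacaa
Cxcl10 (chr5:92348890-92349139, minus strand): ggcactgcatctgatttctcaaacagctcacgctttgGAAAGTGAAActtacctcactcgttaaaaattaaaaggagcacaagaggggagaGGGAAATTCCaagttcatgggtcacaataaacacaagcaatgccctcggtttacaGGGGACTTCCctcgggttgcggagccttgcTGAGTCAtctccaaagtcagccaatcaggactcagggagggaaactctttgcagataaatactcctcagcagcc
Nfkbia (chr12:55492648-55492897, minus strand): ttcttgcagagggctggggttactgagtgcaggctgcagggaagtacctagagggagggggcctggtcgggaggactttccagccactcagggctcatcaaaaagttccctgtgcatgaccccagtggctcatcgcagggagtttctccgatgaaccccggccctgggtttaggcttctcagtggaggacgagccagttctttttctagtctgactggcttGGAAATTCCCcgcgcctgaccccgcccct
Ifnb1 (chr4:88522795-88523044, minus strand): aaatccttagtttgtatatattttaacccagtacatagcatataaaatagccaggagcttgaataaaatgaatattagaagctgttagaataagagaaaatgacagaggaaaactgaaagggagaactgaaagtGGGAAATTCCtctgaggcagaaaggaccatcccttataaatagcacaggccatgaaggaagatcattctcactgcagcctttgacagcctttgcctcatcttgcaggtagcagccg
Ifit1 (chr19:34640639-34640888, plus strand): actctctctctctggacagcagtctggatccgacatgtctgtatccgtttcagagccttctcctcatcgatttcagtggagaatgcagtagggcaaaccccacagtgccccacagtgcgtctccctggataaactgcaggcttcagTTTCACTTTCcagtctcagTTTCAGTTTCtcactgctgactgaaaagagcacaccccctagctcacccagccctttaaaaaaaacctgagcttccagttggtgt
Tnf (chr17:35202008-35202257, minus strand): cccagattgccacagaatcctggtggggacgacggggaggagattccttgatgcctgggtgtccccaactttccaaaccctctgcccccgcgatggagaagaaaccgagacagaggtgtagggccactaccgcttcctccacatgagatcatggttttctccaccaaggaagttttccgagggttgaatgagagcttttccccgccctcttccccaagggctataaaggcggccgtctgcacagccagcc
Cxcl1 and Cxcl2 held 3 NF-κB matches each within the last 97 bases, and in each gene 1 match on the plus strand overlapped 1 on the minus strand. Cxcl10 held 2 NF-κB matches, 159 and 104 bases before the start, an interferon element core 213 bases before it and an AP-1 site, which reads as a match on both strands. Nfkbia and Ifnb1 held 1 NF-κB match each, 29 and 116 bases before the start. Ifit1 held 2 interferon element cores, both on the opposite strand, and the Tnf window held no match to any of these letters. The windows of Ptgs2, Acod1, Oasl1 and Il1b were searched too and are not printed. They likewise held no match.

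Among the 82 genes, 65 had a promoter in the RefSeq table. The NF-κB letters were found in 13 of these (20%), the interferon element core in 7 (10.8%) and the AP-1 letters in 9 (13.8%). The shares over all 27025 promoters were 4.6%, 3.04% and 6.87%, and over the 12012 genes tested that had a promoter they were 5.07%, 2.93% and 5.07%. These are counts of letters in a fixed window and were not tested.

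Feedback genes of NF-κB, which encode inhibitors that the factor itself turns on, had higher levels in the 3 pairs. Nfkbia, the gene of IκBα, stood at 14.04 and 14.31 untreated, 14.37 and 14.44 with IFNβ, 15.69 and 14.32 with zVAD, and 16.08 and 15.96 with IFNβ+zVAD. Its pooled log2 difference was 1.22 (SE 0.33, unadjusted p = 0.00146, adjusted p = 1.0). Nfkbie, the IκBε gene, stood at 10.64 and 10.86, 11.02 and 10.99, 13.53 and 10.85, and 13.55 and 13.22 in the same order of treatments. Bcl3, a nuclear partner of NF-κB, stood at 12.56 and 12.76, 12.68 and 12.90, 14.05 and 12.76, and 14.51 and 14.35. In Nfkbia, Nfkbie and Bcl3 the discordant library sat with the arrays without zVAD. The NF-κB list held subunits of the factor, such as Nfkb2 and Relb, as well as feedback genes. Of its 15 genes, 15 had a pooled log2 difference above 0, where the median over all genes was -0.01. At an unadjusted p under 0.05 were 7, all higher, against 1.04% of all genes higher at that level, and 0 were called. The list's median pooled difference was 0.87, and its slide-matched medians were 1.30 and -0.02 without IFNβ and 1.53 and 1.30 with it. At least 2-fold higher in the 3 pairs were 8 of the 15, against 0.509% of all genes, namely Nfkb2, Relb, Nfkbia, Nfkbie, Nfkbiz, Bcl3, Tnfaip3 and Tnip3.

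**Figure D4:**
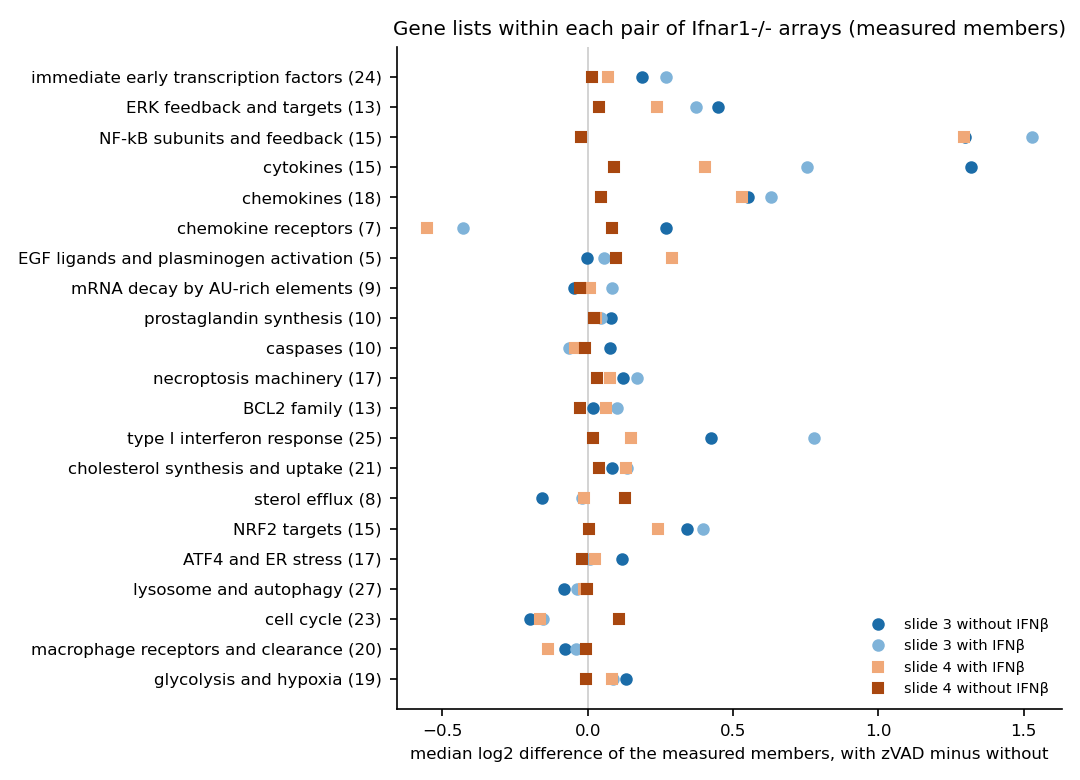
Median log2 difference with minus without zVAD for each gene list (x axis, log2), with 1 symbol for each pair of Ifnar1-/- arrays on 1 slide and the number of measured members in brackets (y axis). The NF-κB list has medians of 1.30, 1.53 and 1.30 in 3 pairs and -0.02 in slide 4 without IFNβ.

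A few interferon-stimulated genes had higher levels with zVAD in these cells without the receptor. Ifit1, an antiviral RNA-binding protein, stood at 2.29 and 2.24 on the untreated arrays, 4.41 and 2.39 with IFNβ, 8.21 and 2.23 with zVAD, and 8.09 and 6.07 with IFNβ+zVAD. It was well above background on 3 arrays with zVAD and on 0 without, at least 5.94-fold higher in the pooled groups (adjusted p = 1.0). Oasl1, a member of the oligoadenylate synthetase family, stood at 3.01 and 3.60 untreated, 4.35 and 2.27 with IFNβ, 8.47 and 3.42 with zVAD, and 7.33 and 6.82 with IFNβ+zVAD, at least 6.66-fold higher. Ifnb1, the gene of IFNβ itself, stood at 3.03 and 2.59, 3.14 and 2.71, 7.11 and 2.81, and 6.74 and 4.57 in the same order. It was well above background on 2 arrays with zVAD and 0 without, at least 3.24-fold higher (unadjusted p = 0.0032, adjusted p = 1.0). Rsad2, the gene of viperin, differed by 1.58 on the log2 scale (SE 0.53) and Gbp2, a guanylate-binding protein, by 1.32 (SE 0.74).

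Most of the interferon list did not reach these sizes. Of its 25 genes, 5 had an unadjusted p under 0.05, all higher (Ifit1, Ifit2, Ifit3, Oasl1 and Rsad2), 0 were called, and 4 reached 2-fold in the 3 pairs (Ifit1, Oasl1, Rsad2 and Gbp2). Over all genes 1.04% were higher at that unadjusted p and 0.509% reached 2-fold in the 3 pairs. Irf7, the factor that amplifies the interferon response, stood at 6.55 and 6.83 untreated and 6.68 and 6.81 with zVAD, and at 6.24 and 6.93 with IFNβ and 6.52 and 7.01 with IFNβ+zVAD. The list's median pooled log2 difference was 0.31, and its slide-matched medians were 0.42 and 0.02 without IFNβ and 0.78 and 0.15 with it.

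Several genes outside these families showed the same order of arrays. Ptgs2, which encodes the inducible cyclooxygenase, stood at 4.80 and 4.26 untreated, 4.51 and 4.76 with IFNβ, 8.40 and 5.12 with zVAD, and 9.24 and 8.61 with IFNβ+zVAD. With IFNβ it was well above background on 0 of 2 arrays, and the difference in that pair of groups was at least 16.5-fold. Of 10 genes of prostaglandin synthesis Ptgs2 was the 1 with an unadjusted p under 0.05, against 1.04% of all genes higher at that level. The list's median was 0.02. Acod1, chosen after its values were seen, stood at 7.21 and 7.50 untreated, 7.31 and 7.91 with IFNβ, 13.06 and 7.95 with zVAD, and 14.07 and 13.18 with IFNβ+zVAD. The pooled log2 difference of Acod1 was 4.58 (SE 1.16, unadjusted p = 0.000924, adjusted p = 1.0), and in the groups with IFNβ it was 6.02 (SE 1.65, adjusted p = 0.951).

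Tlr2 had higher levels on the same 3 arrays. This gene, which encodes a receptor of bacterial lipoproteins, stood at 12.50 and 12.92 untreated, 12.46 and 12.94 with IFNβ, 14.60 and 12.85 with zVAD, and 15.10 and 14.96 with IFNβ+zVAD, a pooled log2 difference of 1.68 (SE 0.53, adjusted p = 1.0). Clec4e, the gene of Mincle, which also senses dying cells and was chosen after its values were seen, stood at 9.06 and 10.09, 9.34 and 10.31, 13.22 and 10.15, and 14.03 and 13.87 in that order. Of the 20 macrophage receptor and clearance genes measured, 2 had an unadjusted p under 0.05, both higher (Tlr2 and Clec4n, the gene of dectin-2). Over all genes 1.04% were higher at that level. The list's median was -0.09.

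Ccr2 had lower levels with zVAD on the same 3 arrays. This gene, of the receptor of CCL2 that marks recruited monocytes, stood at 10.88 and 10.60 untreated, 11.10 and 10.72 with IFNβ, 9.42 and 10.71 with zVAD, and 9.58 and 9.43 with IFNβ+zVAD. The discordant library again sat with the arrays without zVAD, and the other 3 lay more than 1 log2 unit lower. The pooled log2 difference of Ccr2 was -1.04 (SE 0.44, unadjusted p = 0.0295, adjusted p = 1.0). The 11 genes at least 2-fold lower in the 3 pairs also held Gpr34, a lysophospholipid receptor, and Il1rl1, the receptor of IL-33. The 8 lowest p-values among genes lower with zVAD, none of which passed, belonged to Myl9, Rasa1, Tnnt3, Bmp8b, Pheta2, Olfr767, Eva1a and Zic4, with pooled log2 differences of -0.72 for Myl9 and -0.49 for Rasa1.

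Casp8, Ripk1 and Mlkl had pooled log2 differences near 0. Casp8 stood at 12.71 and 12.998 untreated, 12.68 and 13.005 with IFNβ, 12.77 and 12.95 with zVAD, and 12.72 and 12.89 with IFNβ+zVAD. Its pooled log2 difference was -0.02 with a 95% interval of -0.36 to 0.32. Ripk1 differed by -0.01 (95% interval -0.25 to 0.22), Mlkl by -0.02 (-0.41 to 0.38) and Ripk3 by 0.24 (-0.18 to 0.66). Casp4, the gene of caspase-11, the sensor of cytosolic lipopolysaccharide, was the 1 of 10 caspase genes with an unadjusted p under 0.05. It stood at 12.38 and 12.44 untreated, 12.28 and 12.46 with IFNβ, 13.60 and 12.41 with zVAD, and 13.89 and 13.51 with IFNβ+zVAD, a pooled log2 difference of 0.96 (SE 0.34, adjusted p = 1.0). Of the 17 necroptosis genes, 1 had an unadjusted p under 0.05, Birc3, which encodes the ubiquitin ligase cIAP2. It stood at 9.27 and 9.71, 9.31 and 9.92, 10.80 and 9.75, and 11.07 and 11.05 in the order untreated, IFNβ, zVAD and IFNβ+zVAD. Beside these caspase and necroptosis counts, 1.04% of all genes were higher at an unadjusted p under 0.05. Zfp36, whose product tristetraprolin promotes decay of cytokine mRNA, differed by 0.34 (-0.48 to 1.16).

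Under the alternative spread the pair of groups with IFNβ gave 33 calls higher and 4 lower, 0.205% and 0.0248% of 16105 genes. These included 4 of the 18 chemokine genes (Ccl4, Cxcl1, Cxcl10 and Cxcl2), 3 of the 15 NF-κB genes (Bcl3, Nfkbia and Nfkbie), 3 of the 15 cytokine genes (Il1b, Tnf and Tnfsf9) and 3 of the 25 interferon genes (Gbp2, Ifit1 and Oasl1). Ptgs2, Casp4 and Ier3, an early stress-response gene, were the only other members of the gene lists among the calls. In that limma fit Acod1 was higher by 6.02 (adjusted p = 9.31e-07) and Cxcl10 by 5.09 (adjusted p = 2.56e-05). The fit was chosen after seeing the data. It leaves out the spread between the 2 arrays with zVAD alone, which was large for Acod1 and Cxcl10. These p-values and the number of calls therefore depend on that choice and are a description. The same comparison for zVAD alone could not be made in this way, since the discordant library is 1 of its 2 treated arrays.

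The remaining lists held from 0 to 5 members with an unadjusted p under 0.05. Over all genes 1.69% were at that level, and 1.04% were higher at it. The 13 ERK feedback and target genes had 0 with an unadjusted p under 0.05 and a median pooled log2 difference of 0.28. Among the 24 immediate early transcription factors measured, 5 were at that level, all higher (Junb, Nr4a2, Ier3, Maff and Csrnp1), with a median of 0.12. Junb, a subunit of AP-1, was the lowest in p. It stood at 9.79 and 10.27 untreated, 9.95 and 10.31 with IFNβ, 10.83 and 10.22 with zVAD, and 11.02 and 11.17 with IFNβ+zVAD, a pooled log2 difference of 0.73 (SE 0.20, adjusted p = 1.0). NRF2 targets had 2 of 15 at an unadjusted p under 0.05, both higher, Nqo1, a quinone reductase, at 0.70 (SE 0.28), and Gclm, of glutathione synthesis, at 0.55. The lysosome and autophagy list had 1 higher of 27 (Ctss, cathepsin S) and 1 lower (Cst3, the inhibitor cystatin C). The BCL2 family (13 genes), cholesterol synthesis (21), sterol efflux (8), ER stress (17), mRNA decay (9), and glycolysis and hypoxia (19) had 0 each. Of 23 cell cycle genes 21 lay below 0 in the pooled comparison, with a median of -0.11, against -0.01 over all genes, and 0 at an unadjusted p under 0.05. The share of all genes below 0 was not counted.

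The pooled zVAD difference in WT cells, measured on other arrays, gave 2 calls by limma, Egr1 and Gdf15, 0.0124% of genes (274 with the slide as a block), with 1254 genes (7.79%) at an unadjusted p under 0.05. Egr1, an immediate early factor downstream of ERK, stood on the WT arrays at 7.09 and 8.87 untreated, 8.47 and 9.56 with IFNβ, 11.17 and 11.17 with zVAD, and 11.93 and 12.85 with IFNβ+zVAD, a rise of 3.28 on the log2 scale (SE 0.43, adjusted p = 0.0057). On the Ifnar1-/- arrays it stood at 8.70 and 8.78, 8.69 and 8.82, 9.23 and 8.90, and 9.50 and 9.40 in the same order, a difference of 0.51 (95% interval -0.39 to 1.40). The difference between the genotypes was -2.77 (SE 0.60, unadjusted p = 0.00021, adjusted p = 1.0), so it did not pass over all genes. Gdf15, a stress cytokine, rose by 3.90 in WT cells (adjusted p = 0.0275) and differed by 1.43 (SE 0.60) in Ifnar1-/- cells. Hbegf, a ligand of the EGF receptor, differed by 1.89 in WT and by 0.11 (95% interval -0.68 to 0.91) in Ifnar1-/- cells, and Il1rn, the IL-1 receptor antagonist, by 1.80 and -0.05. Neither genotype difference passed, with log2 values of -1.77 for Hbegf and -1.86 for Il1rn (unadjusted p = 0.000858, adjusted p = 1.0).

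For Cxcl10 the estimate was larger in the Ifnar1-/- cells. On the WT arrays it stood at 13.31 and 13.31 untreated, 15.38 and 17.30 with zVAD, 18.09 and 17.93 with IFNβ, and 18.11 and 17.92 with IFNβ+zVAD. On WT slides 1 and 2 its log2 difference with zVAD was 2.07 and 3.99 without IFNβ, and 0.016 and -0.01 with it. Pooled, the WT difference was 1.52 (SE 0.73) against 4.03 in Ifnar1-/- cells. The WT value averages over pairs without and with IFNβ, and WT Cxcl10 already stood at 18.09 and 17.93 with IFNβ alone. The difference between the genotypes was 2.52 (SE 1.03, unadjusted p = 0.0246, adjusted p = 1.0), which did not pass over all genes. With zVAD replicate 2 and both LPS+zVAD+Nec1 arrays of the Ifnar1-/- cells left out, a choice made after seeing the data, Cxcl10, Acod1 and Oasl1 were called for this difference, all higher in Ifnar1-/- cells.

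Tnf differed with zVAD by 2.53 in WT cells (adjusted p = 0.305) and by 2.36 in Ifnar1-/- cells, and the difference between them was -0.17, with a 95% interval of -2.49 to 2.16 that does not show them to be alike. Across all genes the difference between the genotypes gave 1 call, 0.00621%, again 4933438K21Rik (adjusted p = 0.0461), whose probe was well above background on 0 of the 8 Ifnar1-/- arrays, so no size is given, with 215 genes (1.33%) at an unadjusted p under 0.05. The 82 genes had WT medians of 1.28 and 2.03 on slides 1 and 2 without IFNβ, where 55 and 75 were at least 2-fold higher, and of 0.67 and 0.52 with IFNβ, where 24 and 23 were. Over all genes these WT pairs had 0.977%, 4.48%, 1.59% and 3.06% at least 2-fold higher.

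**Figure D5:**
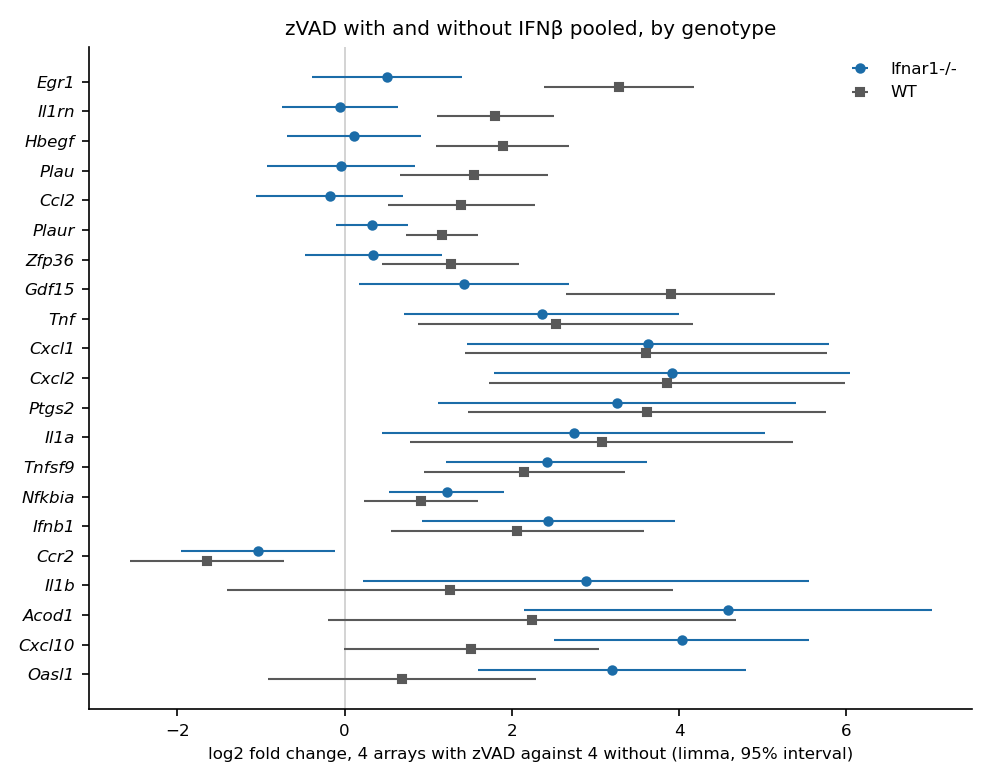
Pooled log2 difference with minus without zVAD in the Ifnar1-/- cells and in the WT cells for named genes and others chosen after their values were seen (x axis, log2; points are the limma estimates from 4 arrays against 4 and bars their 95% intervals). Egr1 lies at 3.28 in WT and 0.51 in Ifnar1-/- cells, whereas Tnf lies at 2.53 and 2.36.

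Whether the zVAD difference itself depended on the added IFNβ was tested as an interaction over the 8 Ifnar1-/- arrays, with the spread taken from all 32 arrays. It gave 0 calls with limma, with 103 genes (0.64%) at an unadjusted p under 0.05. The lowest p-values belonged to 4933438K21Rik and Kcnrg, higher with IFNβ, and to Olfr767 and Fthl17f, lower, with an adjusted p of 0.616 or more for each. Because 1 of the 2 arrays with zVAD alone is the discordant library, this test compares the pairs with that library included.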

How the data were processed

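The 32 RNA samples were each labelled with Cy3 and hybridised to 1-colour Agilent mouse 8x60K arrays. The authors deposited the scanner output of each array (Feature Extraction 11.5.1.1), with the background-corrected processed signal as intensity, and a table of log2 values normalised by quantile. Here the processed signal was taken as log2, outlier spots were removed, and the 32 arrays were quantile normalised together. Probes well above background on at least 50% of arrays were kept, and the brightest probe stood for a gene, which left 16105 genes. Of 55681 probes, 27656 were named through a RefSeq accession, 5484 by the symbol in the file and 22541 not at all. Probe coordinates were those of the files (mm9).

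The 16 group means were fitted together with limma 3.58.1 in R 4.3.3 (16 residual degrees of freedom), with empirical Bayes moderation and Benjamini-Hochberg adjustment over all genes. IFNβ entered as a covariate through the group means, and adjusted p under 0.05 was the call. The scripts were tested on simulated data. A fold against a probe that was not well above background on every array of a group is a lower bound, set against the lowest signal well above background. The number of arrays limits the precision. Where a slide was a block, each replicate number was 1 slide: same-numbered arrays of the Ifnar1-/- groups deviated together, with correlations of 0.55 to 0.69, but there were 2 numbers only. The deposited log2 table correlated with the values used here at 0.989 to 0.996, and its column medians were 7.608 to 7.80. Per the study's methods background was subtracted first, and probes not above it on 50% of arrays or more were dropped. How the background was estimated is not given in the sources used here.

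The members and gene lists were chosen with earlier results of these data known. Genes were named by rule: the called genes with the largest pooled difference, the lowest p in each direction where none was called, the member of each list with the lowest p, and a short list of inflammatory and cell death genes. Others were named outside these rules, with their values known, and only some carry that remark where they appear. Those without it include Nfkbie, Bcl3, Ccl4, Ifit1, Rsad2, Gbp2, Irf7, Gpr34, Il1rl1, Gclm and Gdf15. The alternatives were another scaling, background correction, filter, probe rule, spread and slide block, and each array left out. Some items are not reported here.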

Additional observations from a re-analysis of the deposited data

Results flagged for a closer look

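In groups of 4 arrays, 100 combinations of gene and side were looked at for an array lying far from the other 3. Of these 6 were flagged, which is near the share that chance flags, about 1 in 20. Part of the genes were named from these same values, so the flags are a description. In 4 of them the array was the library labelled zVAD replicate 2 of the Ifnar1-/- cells. Its log2 level was the lowest of the 4 arrays with zVAD for Cxcl10, at 6.29 with the next array at 10.74, for Tnf, at 10.13 with the next at 12.84, and for Plaur, the gene of the urokinase receptor, at 14.23 with the next at 14.68. It was the highest for Ccr2, at 10.71 with the next at 9.58. Over all 12267 genes above background on every array this library lay nearest to the untreated array of its own slide. What set it apart was not tested.

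The other flagged arrays were IFNβ replicate 2 for Hif1a, the hypoxia factor, at 11.09 with the next array without zVAD at 10.84, and IFNβ+zVAD replicate 1 for Il1rn, at 9.78 with the next array with zVAD at 9.44. The difference between the genotypes in the effect of zVAD was called for 4933438K21Rik (limma adjusted p = 0.0461). Its fitted log2 value of 2.27 is no measured size, since the probe was well above background on 0 of the 8 Ifnar1-/- arrays compared.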

How the results depend on the processing

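Under the other settings, the 50 named genes gave 928 of 988 values on the same side of the threshold and in the same direction. All of them but 4933438K21Rik were uncalled in the main fit. For those genes the same side means uncalled again, which is no measure of stability. The call of 4933438K21Rik was lost under 12 of 19 settings. The pooled count of 1 gene became 0 with the 75th percentile shift, with normexp background, with the authors' normalized table, with the filter on the 8 Ifnar1-/- arrays, with the slide as replicate block, with the arrays compared alone, with the robust fit and with the additive fit of 8 arrays. It became 2 with no filter on dim probes, 5 without the pair of LPS+zVAD+Nec1 arrays (4933438K21Rik, Acod1, Cd69, Cxcl10 and Tnf) and 60 with the outlying arrays left out together, a choice made after seeing the data. Leaving out 1 array in turn gave 0 to 18. For zVAD against untreated (0 calls) no filter gave 2, the outlying arrays left out together gave 18, and single arrays left out gave 0 to 8. For IFNβ+zVAD against IFNβ (1 call) the counts were 0 with the percentile shift, the filter on 8 arrays and the arrays compared alone, 13 with no filter, 2 under the replicate block and 37 with the spread taken without the discordant groups, also chosen after seeing the data. Single arrays left out gave 0 to 50, the highest without IFNβ+zVAD replicate 1. In these fits the lone array of a group is assumed to vary like the other groups. The IFNβ effect (0 calls) gave 1 with normexp, 6 with no filter, 15 (all lower) with the slide as replicate block, 1 with the arrays compared alone, 6 with the outlying arrays left out together and 0 to 12 with single arrays left out. The interaction gave 1 with no filter, 2 with the outlying arrays left out together and 0 to 20 with single arrays left out.

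The WT count of 2 became 4 with the percentile shift, 5 with normexp and with the authors' table, 6 with no filter, 274 under the replicate block, 0 with the arrays compared alone, 140 without the pair of LPS+zVAD+Nec1 arrays and 153 with the alternative spread, and 1 to 96 with single arrays left out. The difference between genotypes (1 call) gave 0 with the percentile shift, normexp, the authors' table, the filter on 8 arrays, the block, the arrays compared alone and the robust fit, 4 with no filter, 3 with the outlying arrays left out together and 0 to 6 with single arrays left out. The cause of these shifts was not tested.

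The direction of 9 genes turned. With single arrays left out, Zfp36 ranged from -0.143 to 0.826, Casp8 from -0.0973 to 0.0632, Ripk1 from -0.0759 to 0.0536, Mlkl from -0.0709 to 0.0383, Il1rn from -0.137 to 0.0298, LOC101056101 from -0.223 to 0.288 and 2310050C09Rik from -0.0528 to 0.716. With normexp Olfr767 (-0.71 as reported) was 0.00231, Casp8 0.0398 and Il1rn 0.00633. With the authors' table Casp8 was 0.0292, Mlkl 0.0455 and 2310050C09Rik -0.00720. With the percentile shift LOC101056101 was -0.0613 and 2310050C09Rik -0.121, and with the filter on 8 arrays Kcnrg (1.58 as reported) was -0.923. There were 2 arrays a group, and the 2 with zVAD alone lay far apart for genes such as Tnf and Cxcl10. An absence of calls therefore says little about which genes differ. Signal near background limits genes such as 4933438K21Rik, Ifnb1, Ifit1, Oasl1 and Il6.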

Other observations

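Ifnar1-/- arrays given necrostatin-1 together with IFNβ and zVAD lay outside the comparison. On these 2 arrays Tnf stood at log2 levels of 9.92 and 9.97 and Ptgs2 at 5.24 and 5.13, while Cxcl10 stood at 11.05 and 10.81 and Ifit1 at 9.76 and 9.48. Acod1 stood at 9.45 and 10.03 and Cxcl1 at 8.75 and 8.60. No test of these arrays against those with IFNβ+zVAD was made.

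For scale, the Ifnar1-/- arrays with LPS alone had Tnf at 17.51 and 17.66, Cxcl1 at 16.60 and 16.71, and Ptgs2 at 15.78 and 16.09, and these values are those of single probes on the same normalised scale.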
